A study of Mus musculus with 2 samples.

Results

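Superoxide and hydrogen peroxide form as by-products of respiration and of oxidase enzymes, and cells remove them in steps. Superoxide dismutases turn superoxide into hydrogen peroxide, and catalase, glutathione peroxidases and peroxiredoxins then reduce peroxides to water or alcohols. Catalase works in peroxisomes without a thiol partner, whereas glutathione peroxidases draw on glutathione and most peroxiredoxins on thioredoxin. Brain tissue is known for high oxygen use and for low catalase activity compared with liver. The 10 genes described here encode enzymes of this kind and were taken by name: Sod1, Sod2, Cat, Gpx1, Gpx4, Prdx1, Prdx2, Prdx3, Prdx5 and Prdx6. All 10 were found among 43346 Ensembl genes, of which 21474 were protein-coding.

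The libraries came from 2 pieces of mouse cerebellar granule layer dissected by laser capture. The labels describe an adult wild-type male of strain B6NCrl (also given as C57Bl6), aged 8 months, and name no treatment, and each area measured 18000 square microns with a starting quantity of 50 cells. The assay is named single cell RNA-seq, although each library stands for an area that holds many cells, and the library method was Smart-seq, which copies and amplifies the RNA of few cells. The areas form 1 group with n = 2, numbered biological replicates 1 and 2 under a single donor label, and the labels do not say if 1 animal or 2 were used, so their spread may be technical. They are called area 1 and area 2 here. They held 19962271 and 19261911 expected counts in genes. Expression is given as TPM (transcripts per 1000000), which accounts for transcript length, and errors are SD over the 2 areas. The design holds no contrast between conditions, and 2 libraries allow no permutation test to reach 0.05. As each library is a mixture of cells, fewer cells of a type and less RNA per cell cannot be told apart, and no level below is assigned to a cell type.

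The layer's own markers were present in both areas. Of 5 granule neuron markers, all 5 were detected, a term used here for genes that reach 1 TPM and 5 expected counts in each library. Gabra6, a GABA-A receptor subunit typical of these cells, was at 925 and 1086 TPM, Neurod1 at 416 and 438, and Cbln3 at 199.5 and 211.

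The enzymes differ in the residue that meets the peroxide, and the coding sequence around its codon is shown because it separates the glutathione peroxidases from the peroxiredoxins. In Gpx1 and Gpx4 the residue is selenocysteine, encoded by an in-frame TGA that elsewhere means stop. The capitals mark that codon in GENCODE M21 transcripts on GRCm38, which is codon 47 in Gpx1-201 (chr9:108339451-108339453, plus strand) and codon 33 in Gpx4-207 (chr10:80054737-80054739, plus strand).
Gpx1: aatgtcgcgtctctcTGAggcaccacgatc
Gpx4: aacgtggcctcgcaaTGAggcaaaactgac
In the 5 peroxiredoxins the residue is a cysteine that the peroxide oxidizes, and the capitals mark its codon, a TGT or TGC that is followed by further coding sequence in each.
Prdx1: gactttacttttgtgTGTcccacggagatc
Prdx2: gacttcacttttgttTGCcccacggagatc
Prdx3: gatttcacatttgtgTGTcctacagaaatt
Prdx5: gcatttacacctggcTGTtctaagacccac
Prdx6: gactttaccccagtgTGCaccacagaactt
These codons have the numbers 52 in Prdx1-202 (chr4:116691823-116691825, plus strand), 51 in Prdx2-208 (chr8:84970483-84970485, plus strand), 109 in Prdx3-201 (chr19:60870127-60870129, minus strand), 99 in Prdx5-203 (chr19:6907988-6907990, minus strand) and 47 in Prdx6-202 (chr1:161247368-161247370, minus strand). Over the aligned bases of the whole coding sequence, Prdx1 shared 71.0% with Prdx2 and 70.5% with Prdx3, but 62.6% with Prdx5 and 62.4% with Prdx6. Prdx5 and Prdx6 belong to other classes of the family than Prdx1, Prdx2 and Prdx3, and differ from them in how the oxidized cysteine is restored. Gpx1 and Gpx4 shared 64.5% of aligned coding bases.

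Catalase and Prdx5 share a further feature, a signal for import into peroxisomes at the end of the protein. The last 30 coding bases before the stop codon are shown for both, with the codons of that signal in capitals.
Cat: cacatggctgcgaagggaAAAGCTAACCTG
Prdx5: agcctggcccccaacatcctcTCTCAACTC
The capitals lie at chr2:103454759-103454770 in Cat and chr19:6906849-6906857 in Prdx5, both on the minus strand.

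All 10 genes were detected in both areas, against 50.4% of the protein-coding genes. Their summed level was 2583 TPM in area 1 and 2702 TPM in area 2, which is 0.258% and 0.270% of each library's TPM. The median over the 10 was 231 TPM, while detected protein-coding genes had a median of 14.3 TPM. Peroxiredoxins held the largest part, 56.1% and 56.6% of the sum, followed by glutathione peroxidases with 28.3% and 29.8%, superoxide dismutases with 15.2% and 13.4%, and catalase with 0.349% and 0.163%.

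**Figure D1:**
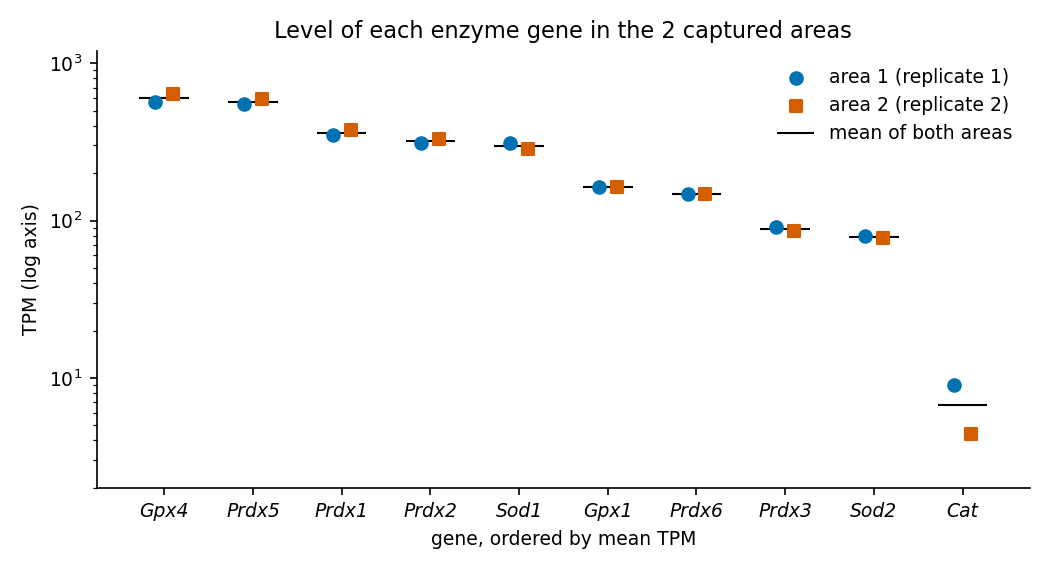
TPM of each gene on a log axis in area 1 (circles) and area 2 (squares), with the mean of both as a line (n = 2). Gpx4 and Prdx5 stand at the top between 548 and 642 TPM, and Cat stands apart at 9.01 and 4.39 TPM.

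Superoxide dismutases come first in the pathway. Sod1, the copper and zinc enzyme of the cytosol, was at 313 TPM in area 1 and 286 in area 2 (299 ± 19.1, SD, n = 2), from 2933 and 2605 counts (ENSMUSG00000022982.9, chromosome 16, 90220754 to 90226329). Sod2, the manganese enzyme of the mitochondrial matrix, was at 80.2 and 76.9 TPM (78.6 ± 2.29), from 5117 and 4774 counts (ENSMUSG00000006818.4, chromosome 17, 13006846 to 13040063). Sod1 was 3.90 and 3.72 times Sod2 on the TPM scale. Sod2 had more reads than Sod1 in both areas, and the order turns with length, since the files count Sod2 over 3824 bases and Sod1 over 646. The M21 annotation gives the same Sod2 transcript 5861 bases.

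Glutathione peroxidases held the highest single level. Gpx4, which reduces lipid hydroperoxides within membranes, was at 569 TPM in area 1 and 642 in area 2 (605 ± 51.5), from 6980 and 7745 counts (ENSMUSG00000075706.6, chromosome 10, 80047166 to 80056439). It ranked 156 among the protein-coding genes. Gpx1, which reduces hydrogen peroxide in cytosol and mitochondria, was at 163.5 and 163.1 TPM (163 ± 0.276), from 2143 and 2049 counts (ENSMUSG00000063856.7, chromosome 9, 108338903 to 108340343). Gpx4 was 3.48 and 3.93 times Gpx1.

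Among the peroxiredoxins, Prdx5, found in mitochondria, peroxisomes and cytosol, was highest at 548 TPM in area 1 and 590 in area 2 (569 ± 29.6), from 6791 and 6965 counts (ENSMUSG00000024953.12, chromosome 19, 6906697 to 6910106). Its range over the areas overlapped that of Gpx4, although Gpx4 was the higher of the pair within each area. The cytosolic Prdx1 was at 349 and 376 TPM (363 ± 18.7), from 6139 and 6238 counts (ENSMUSG00000028691.8, chromosome 4, 116685544 to 116700822). Prdx2, also cytosolic and abundant in neurons and red blood cells, was at 312 and 330 TPM (321 ± 13.2), from 4908 and 5340 counts (ENSMUSG00000005161.11, chromosome 8, 84969587 to 84974834). Prdx1 was 1.12 and 1.14 times Prdx2 on the TPM scale, where their ranges did not overlap. This order depends on the length used and was reversed in both areas with the longest coding length, described below. The ranges of Prdx2 and Sod1 did overlap, with Sod1 the higher in area 1 and Prdx2 in area 2.

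The remaining peroxiredoxins were lower. Prdx6, which uses glutathione and also has phospholipase activity, was at 148.5 TPM in both areas (ENSMUSG00000026701.11, chromosome 1, 161240112 to 161251219), from 2762 and 2647 counts. Prdx3, restricted to mitochondria, was at 91.3 and 85.3 TPM (88.3 ± 4.21), from 2157 and 1960 counts (ENSMUSG00000024997.7, chromosome 19, 60864051 to 60874556). On the TPM scale Prdx5 exceeded Prdx3, its companion in mitochondria, by 6.0 and 6.92 times, with 21.2% and 21.8% of the sum against 3.53% and 3.16%. The size of this gap depends on the length used. With the longest coding length, described below, the shares were 18.7% and 19.0% for Prdx5 and 5.07% and 4.57% for Prdx3. The mitochondrial pair Prdx3 and Sod2 were next to each other in the order, and their ranges did not overlap.

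Cat, which splits hydrogen peroxide in peroxisomes, was the lowest of the 10. It was at 9.01 TPM in area 1 and 4.39 in area 2 (6.70 ± 3.27), from 388 and 184 counts (ENSMUSG00000027187.6, chromosome 2, 103453849 to 103485160). The next gene above it, Sod2, stood 8.90 and 17.5 times higher, and Gpx1 18.1 and 37.2 times higher. Of the protein-coding genes, 64.9% lay below Cat, against 92.9% or more for each of the other 9.

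The order rests partly on the transcript lengths that the counting program fitted. With counts divided instead by the longest annotated coding transcript of each gene, a choice made after seeing the data, Gpx4, Prdx5 and Cat kept places 1, 2 and 10 of 10. Sod1 moved from place 5 to 3 and Prdx1 from 3 to 5, with longest coding transcripts of 646 and 2294 bases. Prdx2 kept place 4, so Prdx1 fell below it, with 9.31% and 9.37% of the sum against 10.6% and 11.4% for Prdx2. Prdx6 moved from place 7 to 9, below Prdx3 and Sod2.

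The transcript tables showed which forms carried these levels. They list 43 transcripts of the 10 genes, of which 41 have the same length in M21. Sod1, Sod2 and Prdx3 had 1 transcript each, and for Cat all counts fell on Cat-201. Transcripts annotated as protein-coding took 99.2% or more of the level of Gpx1, Gpx4, Prdx1 and Prdx5. They took 63.4% and 72.4% for Prdx2. For Prdx6 they took 7.40% and 7.47%.

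**Figure D2:**
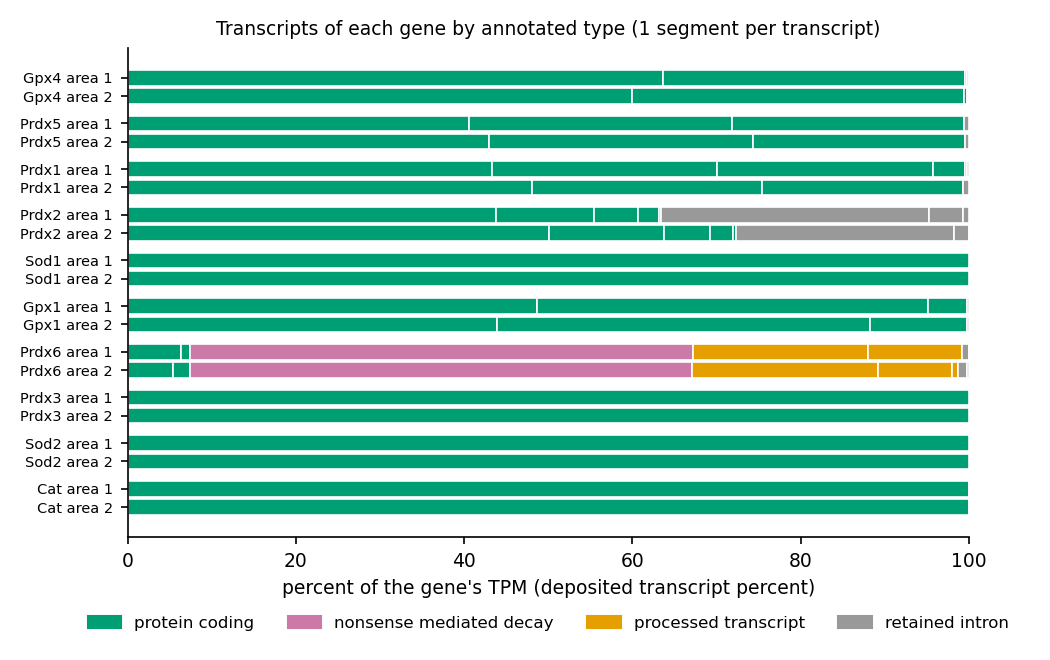
Percent of each gene's TPM taken by each transcript in area 1 and area 2, coloured by annotated type, with 1 segment per transcript. Prdx6 is the gene in which most of the level falls on types other than protein-coding, and Prdx2 has a part on retained-intron transcripts.

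For Prdx6, the transcript Prdx6-208, annotated as a target of nonsense-mediated decay, held 59.7% in area 1 and 59.6% in area 2 (59.7% ± 0.0919), from 1817 and 1762 counts. It lacks exon 2 of the coding form Prdx6-202, 157 coding bases at chromosome 1, 161247257 to 161247413, and that exon holds the cysteine codon shown above. Its annotated frame has 76 codons, compared with 224 in Prdx6-202. The coding form itself held 6.38% and 5.40%, from 372 and 306 counts. The processed transcripts Prdx6-204 and Prdx6-207, which keep exon 2, held 20.9% and 22.1%, and 11.2% and 8.85%. Prdx6-208 differs from Prdx6-202 in a second place as well, with a last exon of 835 bases in place of 1738. The tables give no reads per exon or junction, so which of these places set the share was not tested. As a share of counts rather than TPM, the types other than protein-coding took 85.7% and 86.8% of Prdx6.

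For Prdx2, the coding transcript Prdx2-208 held 43.8% and 50.1%, and the retained-intron transcript Prdx2-205 held 31.8% and 25.9%, from 764 and 640 counts. Prdx2-205 covers exon 5 and part of exon 6 of the coding form Prdx2-201, with 106 bases outside its exons. By counts, the types other than protein-coding took 20.1% and 13.6% of the gene. All 4 coding Prdx2 transcripts with a complete frame have 198 codons, with the cysteine codon at position 51.

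The main Gpx4 forms differ at both ends. Gpx4-207 held 63.7% and 59.9%, with 3945 and 4074 counts, and Gpx4-202 held 35.8% and 39.4%, with 3000 and 3622 counts. Gpx4-202 starts with an exon of 228 bases and has 197 codons with the selenocysteine at codon 73, the length known for the mitochondrial form. Gpx4-207 lacks that exon and has 157 codons, and its last exon has 209 bases in place of 254. Which end set the shares was not tested. Gpx4-201, with 253 codons and a start further upstream than Gpx4-207, held 0.270% and 0.390%. The posterior SD of the counts of both main forms was at most 106.

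In Gpx1, Gpx1-201 with the selenocysteine codon in its frame held 48.7% and 43.9%. Gpx1-204 held 46.4% and 44.3%, and its annotated frame of 145 codons does not hold that codon. Gpx1-202, also without it, held 4.65% and 11.5%, from 89.7 and 214 counts with posterior SDs of 50.4 and 59.6. Gpx1-204 and Gpx1-202 also start later and end earlier than Gpx1-201. Which of these places set the Gpx1 shares was not tested. The 3 Prdx5 coding forms were more even. Prdx5-203 held 40.6% and 42.9%, Prdx5-204 31.2% and 31.4%, and Prdx5-201 27.6% and 25.2%, and all 3 hold the cysteine codon. In Prdx1, Prdx1-201, whose coding end is not found in the annotation, held 43.3% and 48.1%, while Prdx1-202 and Prdx1-204, with 199 codons each, held 26.7% and 27.4%, and 25.7% and 23.8%. Prdx1-205 was at 118 counts in area 1 and 0 in area 2, but its posterior SD of 160 in area 1 exceeded the count.

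Counts in genes of similar sequence were few where such genes were among the counted genes. The deposited posterior SD of a gene's count is above 0 where reads could also belong elsewhere, and it was 0 in both areas for 6 of the 10 genes and at most 6.93 counts, for Prdx5. Genes at least 90% identical over 300 bases or more were found for Sod1, Prdx1, Prdx2, Prdx6 and Gpx4. The pseudogene Gm8566 resembled Sod1 at 97.8% over 465 bases and had 10.4 and 12.6 counts. Gm7204 resembled Prdx1 at 97.5% over 597 bases and had 10.5 and 6.99 counts. Tdpx-ps1 resembled Prdx2 at 96.3% over 597 bases and had 4.77 and 5.64 counts. Prdx6b, a copy of Prdx6, had 1 count in area 1 and 0 in area 2. These counts came to at most 0.485% of the gene they resemble. The 2 genes that resembled Gpx4 are in M21 but not among the counted genes, so how many reads Gpx4 shares with them is not known. The posterior SD of Gpx4, 0 in both areas, does not cover them. On the opposite strand, exons of Prdx5 overlap Trmt112 by 360 bases, and Trmt112 had 1329 and 1251 counts. Exons of Prdx2 overlap Rnaseh2a and Junb by 154 and 173 bases. The use of strand in counting is not given in the sources used here, so reads in these overlaps are uncertain.

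The next comparison set the areas against each other. Expected counts, rounded to whole numbers, were compared by an exact binomial test (two-sided), given each library's part of the joint total, and p-values were adjusted after Benjamini-Hochberg over 16479 genes. The test sets 2 libraries and not conditions against each other. It treats every read as independent, although Smart-seq reads are copies of fewer molecules. Of the 10 genes, 6 lay beyond counting error, against a background of 47.7% of all genes, and 61.0% of the 1451 genes in the TPM range of the 9 genes other than Cat. That share is near the background and is not a result about these enzymes. Area 1 was higher for Cat and Sod1 (2 genes, background 24.1%), and area 2 for Gpx4, Prdx5, Prdx1 and Prdx2 (4 genes, background 23.6%). Gpx1, Prdx6, Prdx3 and Sod2 did not pass. With every count divided by 10, to allow for such copies, 0 of the 10 passed by this test (2 at an unadjusted p under 0.05, Cat and Gpx4).

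Most of these differences were small. On the log2(TPM + 1) scale the median over the 10 genes was -0.0019, and over all genes tested -0.012. The median size without sign was 0.10, compared with 0.11 for genes in the TPM range of the 9. Only Cat, 1 of 10, was over 1.5-fold apart, while 13.1% of all genes were, and 0.620% of genes in the TPM range of the other 9. Gpx4 was 1.13-fold higher in area 2, with a ratio of counts per library total (area 1 over area 2) of 0.870 and a 95% exact interval of 0.842 to 0.898 (adjusted p = 1.15e-15, exact binomial test). Sod1 was 1.09-fold higher in area 1, with a ratio of 1.09 (1.03 to 1.15, adjusted p = 0.00615, exact binomial test). These intervals cover counting error only.

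**Figure D3:**
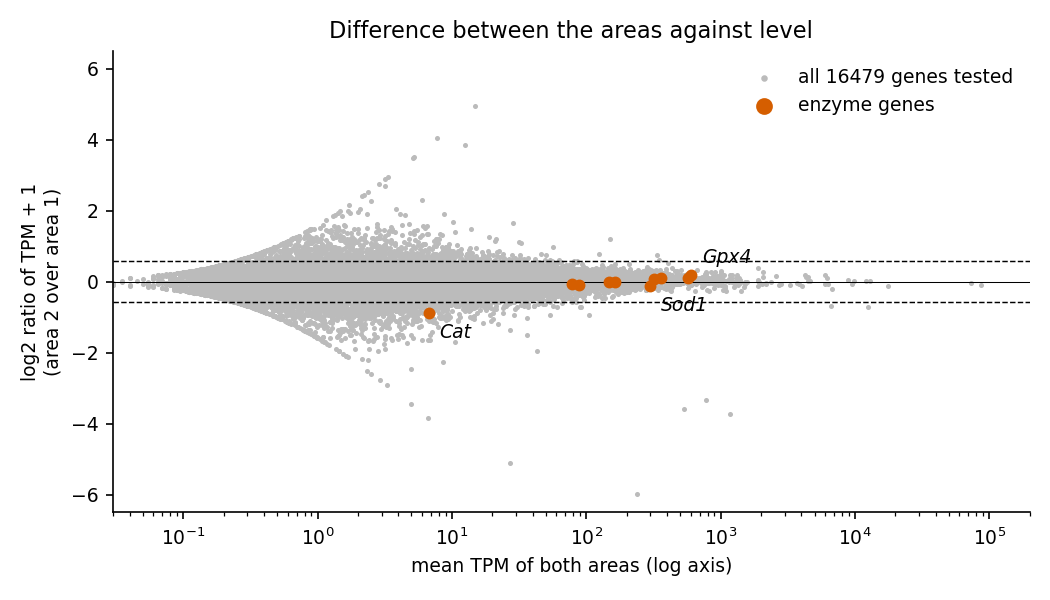
Log2 ratio of TPM + 1 (area 2 over area 1) against the mean TPM on a log axis, for all 16479 genes tested (grey) and the 10 enzyme genes (orange), with dashed lines at 1.5-fold. Cat lies below the lower line at -0.89, and the other 9 lie between -0.13 and 0.17.

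Cat was 2.05-fold higher in area 1 than in area 2 by TPM. The ratio of counts per library total was 2.03, with a 95% exact interval of 1.70 to 2.44 (adjusted p = 1.08e-14, exact binomial test). Of the 4237 genes within 2-fold of its mean TPM, 13.3% were over 1.5-fold apart. Markers of several other cell types were also higher in area 1. All 5 red blood cell markers were, with a summed level of 5040 TPM in area 1 and 390 in area 2, among them the haemoglobin genes Hbb-bs at 1408 and 137 TPM and Hba-a1 at 982 and 81.3 TPM, and the haem synthesis gene Alas2 at 3.90 and 1.63 TPM. All 5 endothelial markers were higher in area 1, summing to 218 and 172 TPM, with Cldn5 at 5.10 and 3.10. So were 4 of 5 microglial markers (84.8 and 63.8 TPM), 4 of 5 markers of inhibitory neurons such as Golgi cells (44.3 and 33.5 TPM) and all 5 of Bergmann glia and astrocytes (488 and 449 TPM). None of the markers in these 5 lists was at 0 in either area. Their part in the Cat difference was not tested. Red blood cells carry much Prdx2, catalase and Gpx1 protein, but the libraries hold RNA and no protein was measured. In the same areas Prdx2 was at 312 and 330 TPM and Gpx1 at 163.5 and 163.1. The part of blood in the levels of these genes was not tested.

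Other lists were higher in area 2, as were Gpx4, Prdx5, Prdx1 and Prdx2. All 5 granule neuron markers were higher there, with a summed level of 1905 TPM in area 1 and 2131 in area 2, and all 5 oligodendrocyte markers were, with 545 and 673 TPM and the myelin gene Mbp at 249 and 312. Of the mural cell markers 3 of 5 were higher in area 2 (36.4 and 52.1 TPM), with Acta2 and Tagln at 0 counts in area 1 and Vtn at 6.80 and 20.9 TPM. The mural markers Rgs5, at 27.9 and 19.9 TPM, and Kcnj8, at 1.70 and 0.630, went the other way. Of the Purkinje cell markers 3 of 5 were higher in area 2 (105 and 172 TPM). Most of that sum was Pcp2 alone, at 91.1 and 158 TPM, and Itpr1 was higher in area 1, at 4.95 and 3.81. The part of these cells in the levels of Gpx4, Prdx5, Prdx1 and Prdx2 was not tested.

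**Figure D4:**
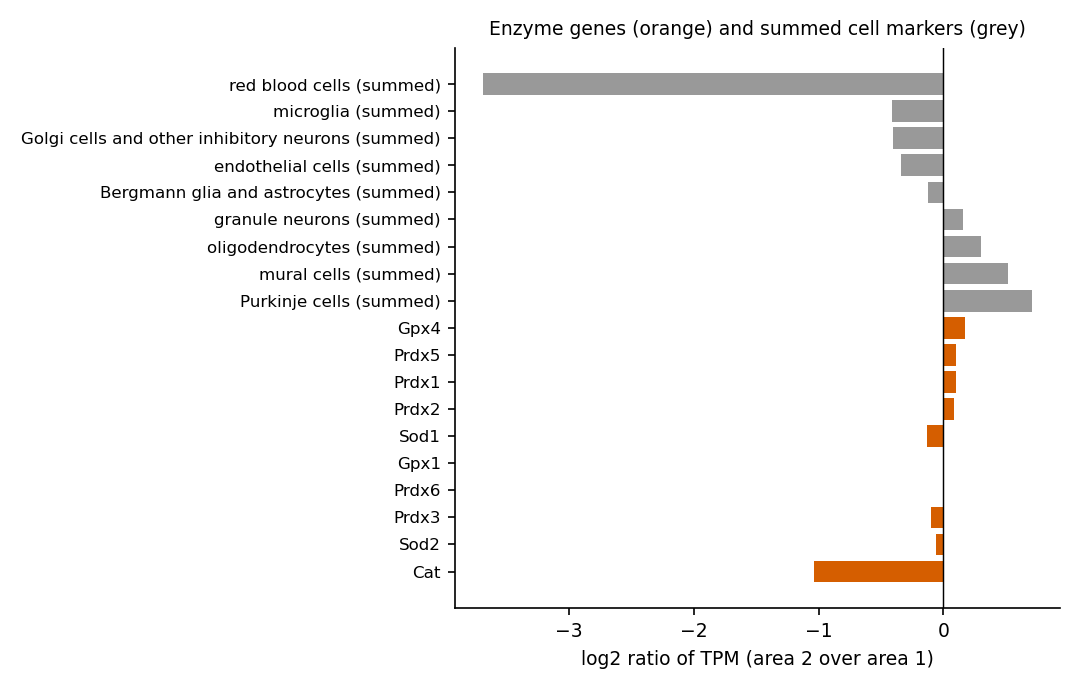
Log2 ratio of TPM (area 2 over area 1) for the summed markers of 9 cell types (grey, 5 genes each) and for the 10 enzyme genes (orange). The red blood cell markers stand furthest to the left with 5040 TPM in area 1 and 390 in area 2, and Cat is the enzyme gene furthest to the left.

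Partner genes of these enzymes were described by 8 lists that hold 89 named genes. Of these, 67 were detected in both areas, against 50.4% of the protein-coding genes, and the median was 7.13 TPM. The same 50.4% is the background for the count of detected genes in each list below. Of the 80 with enough counts to test, 24 were beyond counting error and higher in area 1 and 24 higher in area 2, against backgrounds of 24.1% and 23.6%, and 11 were over 1.5-fold apart, against a background of 13.1%. The last count is near its background. The counts of 24 are genes out of 80 and not percents. The share called differs with level, at 47.7% of all genes and 61.0% in the TPM range of the 9 enzyme genes other than Cat. No background at the level of these lists was taken, so the counts of 24 are not a result about these genes.

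The other members of the same families were low. Of 9, only 3 were detected, and the median was 0.360 TPM. Prdx4, the peroxiredoxin of the endoplasmic reticulum, was the highest at 31.7 and 37.7 TPM, followed by Gpx8 at 2.48 and 5.04 and Gpx7 at 3.31 and 2.12, both also of the endoplasmic reticulum. The secreted Sod3 was at 0.300 and 0.730 TPM, and the plasma enzyme Gpx3 at 0.20 and 0.520. Gpx5 and Gpx6 had 0 counts in both areas, which at this depth leaves room for levels of up to 0.150 and 0.156 CPM (3 counts per library). This bound treats every read as independent, although Smart-seq reads are copies of fewer molecules, so higher levels could also be missed.

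Most genes of the thioredoxin and glutathione lists were detected, and the genes named from them are not all electron donors. In the thioredoxin list 8 of 10 genes were detected, with Txn1, the cytosolic thioredoxin, at 274 and 254 TPM, the mitochondrial Txn2 at 180.0 and 199 and Sesn1, a stress-induced sestrin, at 50.0 and 45.9. Txnrd3 was the lowest at 0.150 in both areas. Srxn1, sulfiredoxin, which restores overoxidized peroxiredoxins, was at 18.2 and 18.9 TPM. In the glutathione list 9 of 10 were detected, with the glutaredoxins Glrx5 at 91.9 and 88.9, Glrx3 at 79.4 and 82.0 and Glrx2 at 74.9 and 73.4 TPM. Slc7a11, the cystine importer, was lowest at 1.68 and 0.650. All 8 genes of NADPH supply were detected, led by Nadk2 at 17.6 and 22.9, Idh2 at 15.5 and 14.3 and G6pdx at 16.2 and 9.99 TPM, with Me1 lowest at 4.01 and 3.05.

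Genes that deliver metals and selenium were detected in 12 of 12 cases. Atox1, a copper chaperone, was at 240 and 244 TPM, Pstk, a kinase of selenocysteine synthesis, at 46.8 and 67.3, and the selenium carrier Selenop at 38.8 and 47.6. Slc39a14 was lowest at 3.45 and 2.27. Ccs, which loads copper into the Sod1 protein, was at 14.6 and 18.3 TPM. All 13 peroxisome genes were detected, led by Pex2 at 38.5 and 35.8, Pex19 at 35.3 and 37.6 and Pex16 at 25.8 and 27.9 TPM, with Pex26 lowest at 1.95 and 3.72. Pex5, the receptor for the type of signal that Cat and Prdx5 carry, was at 5.10 and 5.24 TPM.

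Sources of superoxide and peroxide were mostly undetected, with 5 of 15 genes above the limits and a median of 0.780 TPM. Among them were Rac1, a GTPase with many other roles, at 113 and 109 TPM and the monoamine oxidase Maoa at 12.4 and 12.2. Nox3, Nox4 and Duox2 had 0 counts in both areas. Among the regulators 9 of 12 were detected, with Foxo3 at 77.8 and 85.2, Nfe2l1 at 27.1 and 24.6 and Keap1 at 10.4 and 10.9 TPM, and Maff at 0 counts. Nfe2l2, the factor that drives antioxidant genes when it is released from Keap1, was at 3.58 and 4.95 TPM. Nqo1 and Hmox1, which are among its usual targets, were at 6.90 and 11.9 TPM and at 0.0400 and 0.920 TPM. They were picked after their values were seen, and the targets of Nfe2l2 were not described as a set.

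**Figure D5:**
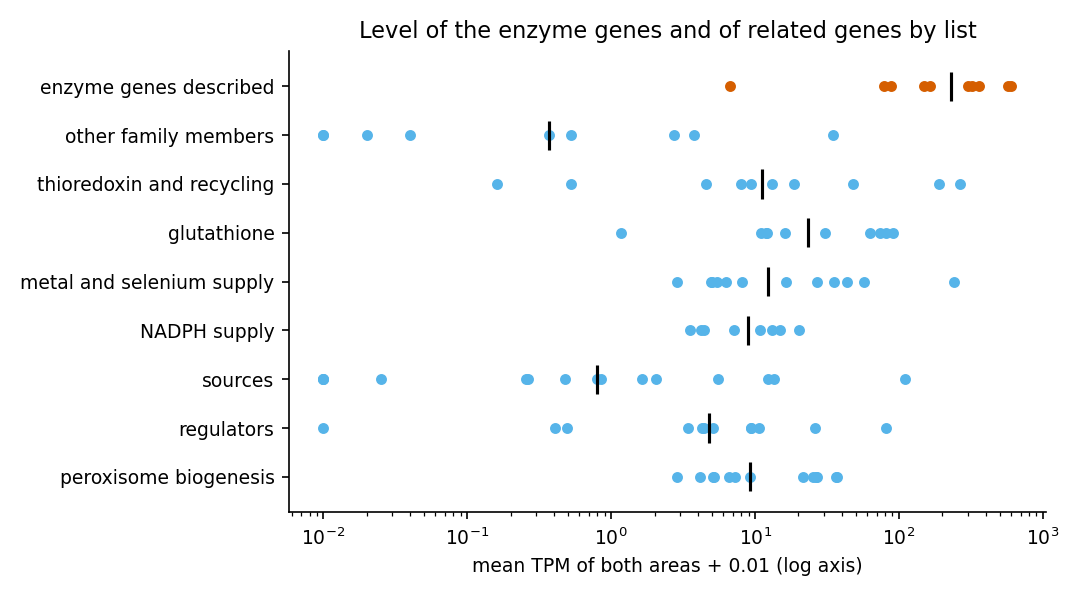
Mean TPM of both areas plus 0.01 on a log axis, for the 10 enzyme genes (orange) and the genes of each related list (blue), with the median as a black line. Of the enzyme genes, 9 lie above 78 TPM, and the medians of the 8 related lists lie between 0.360 and 23.4 TPM.

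The start regions of the genes were read from RefSeq on GRCm38.p6, from 250 bases before to 50 after each start. Entries were found for 9 of the 10 genes, 12 start regions in all, without Prdx6. Their median GC content was 63.2%, compared with 52.7% over all 32851 start regions. No background of genes at a like level was taken, so the GC content is not a result about these enzymes. The core of the antioxidant response element, the site of Nfe2l2, was searched as TGACNNNGC on both strands, and 2 of the 9 genes held it, compared with 14.0% of all genes with an entry. Both matches were on the strand opposite to the gene and are shown with the matched letters, the reverse complement of the core, in capitals.
Prdx1: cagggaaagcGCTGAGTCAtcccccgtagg
Sod1: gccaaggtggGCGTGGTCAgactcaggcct
The stretches lie at chr4:116685456-116685485 and chr16:90220696-90220725, both on the plus strand. The NRF1 palindrome of 10 bases, searched on both strands, was found in 0 of the 9 genes, compared with 1.07% of all genes. A match describes letters in the sequence and not a bound site.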

How the data were processed

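A gene table and a transcript table of each area were used. Per the file headers and deposited notes, the authors' expected counts were estimated on mm10 with GENCODE M4. The deposited TPM and FPKM values account for effective length and are relative to the library. The deposited percent is the part of a gene that falls on a transcript, and the deposited score columns hold a posterior SD of the count. The aligner, the counting program and any use of strand: not given in the sources used here.

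Names, transcript types and coordinates were taken by unversioned ID from the M21 release of GENCODE, whose build GRCm38 equals mm10. Expected counts were rounded to whole numbers, and genes with a summed count of at least 10 were tested (scipy 1.17.1), and library totals covered Ensembl genes only. Fold differences used log2(TPM + 1). Similar genes were found with blastn 2.17.0. TMM (edgeR 4.0.16) and DESeq2 1.42.0 size factors served as alternatives. The test was run on simulated counts drawn as independent reads. That run holds no amplification copies and no spread between areas, so it cannot show how the test behaves on Smart-seq libraries. Genes named are the 10, the 3 highest and the lowest of each related list, the first 3 markers of a cell type list where shown, and the most counted similar gene. Gpx3, Sod3, Srxn1, Ccs, Pex5, Nfe2l2, Nqo1, Hmox1, Tagln, Kcnj8, Itpr1 and the genes with overlapping exons fall outside this rule and were chosen after their values were seen. The values of 1 gene that the rule names are not reported here. The genes and lists were chosen with earlier results of these data known. P-values measure only the spread of reads between these 2 libraries.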

Additional observations from a re-analysis of the deposited data

How the results depend on the processing

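The count of 6 genes beyond counting error was also 6 with TMM sizes, without the filter, with posterior mean counts and, added after seeing the data, without haemoglobin genes in the totals, and the same 6 genes were called each time. It was 0 with counts divided by 10, where 0.698% of all genes were called. The 1 gene over 1.5-fold apart, Cat (13.1% of all genes), was also so with a pseudocount of 0.1 (26.7% of all genes), without the filter (13.9%) and with DESeq2 size factors (27.0%), but 0 of the 10 were with a pseudocount of 5 (1.77%). The mean summed level of 2642 TPM became 4450 when TPM was rescaled to nuclear protein-coding genes. With an area left out it is the sum of the other area, 2583 or 2702 TPM, so this setting is no further check. Of the 89 related genes, 67 were detected (50.4% of the protein-coding genes), 49 were with a limit of 5 TPM, and 73 were with a limit of 10 counts and none on TPM. No background was taken at the other 2 limits. Shares of the summed level moved by less than their SD under posterior mean TPM for all 10 genes. FPKM gives the same shares as TPM by construction, apart from rounding, so it is no check on them. The longest coding length, added after seeing the data, moved 9 of the 10. No paired analysis was possible because there is only 1 group. Depth limits Cat most, at 388 and 184 counts.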
